A study of Mus musculus with 20 samples.

Results

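The 10 genes described here encode the enzymes that build triglyceride from glycerol 3-phosphate or monoacylglycerol: Gpam, Agpat2, Agpat3, the lipins Lpin1, Lpin2 and Lpin3, Dgat1, Dgat2, Mogat1 and Mogat2. They were taken by gene symbol from a table of 38924 genes, with earlier results of these data known, and each symbol matched 1 gene. RNA came from the livers of 20 male mice in 4 groups of 5. Wild type C57BL/6J (WT) mice and TSP-1 null mice, which carry a germline knockout of the matricellular protein thrombospondin 1 and which the labels also place on a C57/BL6 background, were bought at 5 weeks of age. After 1 week they were fed control chow or CDAHFD for 12 weeks. CDAHFD is a high fat diet of defined L-amino acids, limited in methionine and without choline. The group names give diet and then genotype: NDWT and NDKO for the WT and TSP-1 null mice on control diet, HFWT and HFKO for those on CDAHFD. Each library is 1 mouse. The mice had free access to chow, and the sources used here do not give the time of day at which livers were taken or whether food was withdrawn.

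In the glycerol phosphate pathway, a GPAT attaches the first fatty acid to glycerol 3-phosphate, an AGPAT attaches the next to make phosphatidic acid, a lipin removes the phosphate to give diacylglycerol, and a DGAT adds the last fatty acid. Monoacylglycerol acyltransferases (MGATs) make diacylglycerol by a shorter route that is best known from the absorbing cells of the small intestine. Lipins also work in the nucleus, where lipin 1 is a coactivator of PPARα, and the liver stores the triglyceride in droplets or exports it in VLDL, a step that needs choline for phosphatidylcholine.

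Levels are FPKM, fragments per kilobase of gene scaled to the fragments assigned in the library, so they are per length and can be compared between genes. Libraries held 15641545 to 23276322 fragments, and 3 fragments on a gene of 1 kb correspond to 0.129 to 0.192 FPKM. Summed over Alb, Apoa1, Cps1, Cyp2e1 and Ttr, hepatocyte markers stood between 27626 and 47388 FPKM in every library, whereas 5 adipocyte markers summed to 2.26 FPKM or less. Thbs1, the gene for TSP-1, was not lower in the control diet livers labelled TSP-1 null: it ranged from 0.986 to 1.90 FPKM in NDKO and from 0.058 to 0.326 in NDWT. On CDAHFD its ranges overlapped, at 3.46 to 6.10 FPKM in HFWT against 3.05 to 4.40 in HFKO. FPKM per gene does not show whether a transcript is intact, so these values cannot check the labels. The genotype groups are therefore libraries labelled WT and libraries labelled TSP-1 null, and each genotype difference below rests on those labels. In whole liver, fewer cells of a type and less RNA per cell cannot be told apart.

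**Figure D1:**
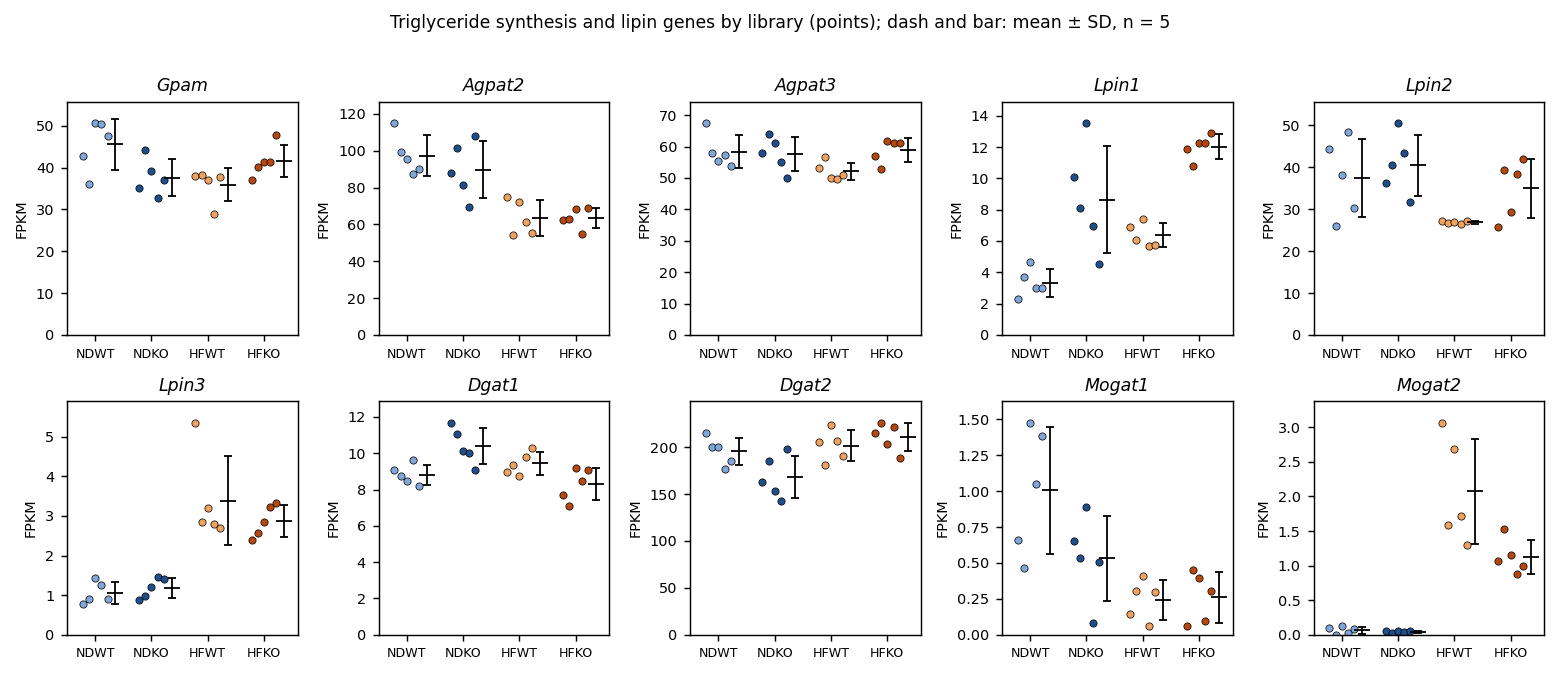
FPKM of the 10 genes in each of the 20 libraries (points, replicate 1 to 5 from left to right in each group), with the mean ± SD over 5 mice at the right of each group and a separate vertical axis from 0 for each gene. Lpin1 was lowest in NDWT (3.32 on average) and highest in HFKO (12.0), and Mogat2 lay at 0.122 FPKM or less in every control diet library and at 0.882 or more in every CDAHFD library.

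The enzymes kept much the same order of levels in the 4 groups. Dgat2, the DGAT linked to newly made fatty acids, was the most abundant of the 10 in each group, with mean FPKM of 195 ± 14.8 (SD, n = 5) in NDWT, 168 ± 22.8 in NDKO and, on CDAHFD, 201 ± 16.5 in HFWT and 211 ± 15.3 in HFKO. Agpat2 followed at 97.3 ± 11.0, 89.6 ± 15.5, 63.6 ± 9.68 and 63.5 ± 5.61 in the same order of groups, then Agpat3 at 52.1 to 58.8, and then Gpam and Lpin2. The ranges of Agpat2 and Agpat3 overlapped on CDAHFD but not on control diet. Gpam and Lpin2 could not be ranked in NDWT, NDKO or HFKO because their ranges overlapped, but in HFWT every value of Gpam lay above every value of Lpin2. Dgat1, the DGAT that the intestine also depends on, held 8.31 to 10.4 FPKM on average. Lpin3, Mogat1 and Mogat2 stayed at a mean of 3.38 FPKM or less in every group. The order changed at 2 places: Lpin1 lay below Dgat1 without overlap in NDWT and HFWT and above it without overlap in HFKO, and Mogat2 lay below Mogat1 on control diet and above it on CDAHFD, each time without overlap. In NDKO the MGAT order is not secure, since Mogat1 in replicate 4 rested on 2 fragments and Mogat2 on at most 2 in any NDKO library.

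The spread between mice also differed by gene. Dgat2 and Dgat1 varied by 6.28% to 13.6% (coefficient of variation, n = 5) within the groups, and Agpat3 by 5.38% to 9.45%. Lpin1 varied by 27.1% in NDWT and 39.3% in NDKO but by 12.0% in HFWT and 6.53% in HFKO. Lpin2 in HFWT was the steadiest of all, with 26.4 to 27.2 FPKM in the 5 livers, a variation of 1.27%. Mogat1 rested on 148 fragments over the 5 NDWT libraries and varied by 43.9% to 67.4%.

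All 10 genes entered the test, limma on log2(FPKM + 0.1) over 14524 genes that exceeded 0.5 FPKM in 5 or more libraries, and a gene was called at a Benjamini-Hochberg FDR below 0.05 with an absolute log2FC above 0.58. Mogat1 passed that filter only through control diet libraries and Mogat2 only through CDAHFD libraries. Each thus entered through the diet on which it was higher, so their diet calls are descriptive only. The diet counts here include both genes. With CDAHFD in WT livers, Lpin1, Lpin3 and Mogat2 rose and Agpat2 and Mogat1 fell, which is 3 genes higher and 2 lower of 10, where 44.1% of all tested genes were called higher and 4.62% lower. In livers labelled TSP-1 null, Lpin3 and Mogat2 rose and none of the 10 was called lower, against 41.9% and 4.00% of all genes. The groups did not overlap for 5 of the 10 genes in WT and for 3 in TSP-1 null, against 56.2% and 57.8% of all genes. The diet moved the median of all genes upward, by 0.53 in WT and 0.50 in TSP-1 null on the log2 scale, while the median of the 10 genes was -0.06 and 0.09. Scaling libraries by the median of ratios removed that shift, and the calls then split differently, with 2 higher and 5 lower of the 10 in WT, against 22.7% and 15.4% of all genes, and 2 higher and 4 lower in TSP-1 null, against 22.2% and 13.6%. Where median of ratios scaling or quantile normalization ended or made a diet call of one of the 10 genes, its value is given below. Each group serves in 2 of the 4 comparisons, so values of the same gene in comparisons with a shared group are not independent.

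**Figure D2:**
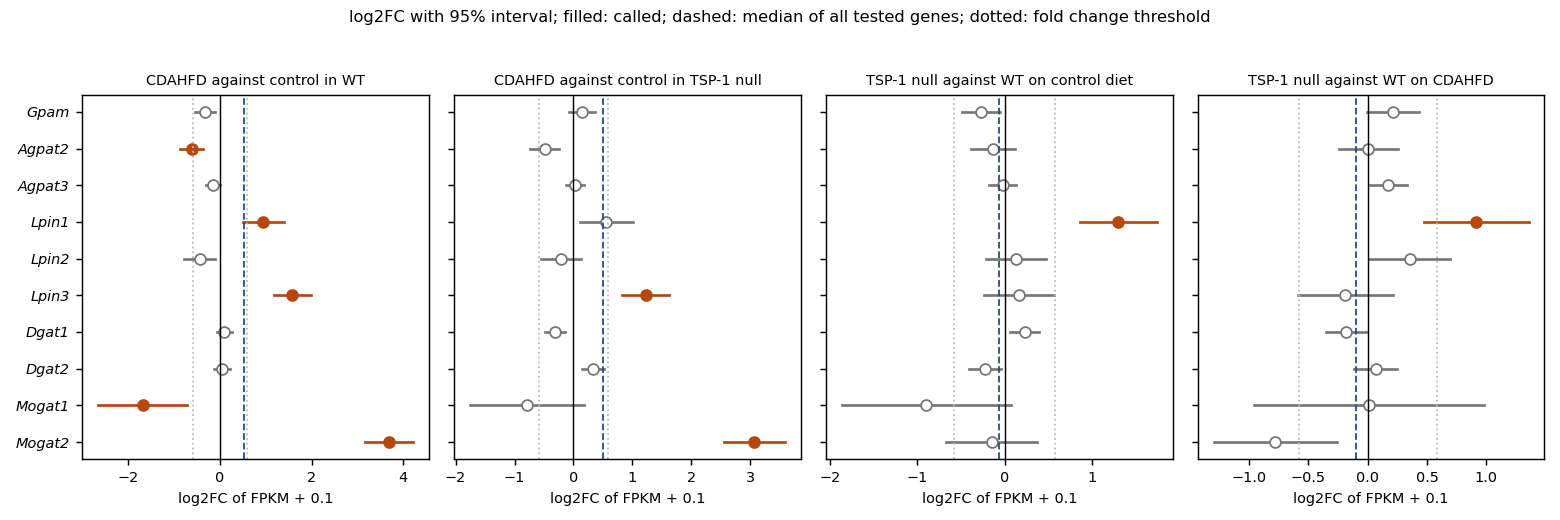
The log2FC of each gene on the log2(FPKM + 0.1) scale (horizontal axis, points) with its 95% interval from limma (bars) in the 4 comparisons, where filled points are called. Under CDAHFD the dashed line, the median of all tested genes, stands at 0.53 in WT and 0.50 in TSP-1 null, to the right of 7 of the 10 genes in WT, and Lpin1 is the one filled point in both genotype panels.

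The lipins are taken first because Lpin1 was the one gene of the 10 called between genotypes. For each of the 3 genes, 250 bases before 1 RefSeq gene start are printed 5′ to 3′ on the coding strand (GRCm38.p6). Capitals mark matches on either strand to the E-box CACGTG, the GC box GGGCGG, the TATA box TATAAA, the CCAAT box CCAAT, the cAMP response element TGACGTCA, the nuclear receptor motif AGGTCA or the sterol regulatory element TCACNCCAC. RefSeq windows were given for 7 of the 10 genes, and Dgat1, Dgat2 and Mogat2 were not among them.
Lpin1, chr12:16610967-16611216, minus strand: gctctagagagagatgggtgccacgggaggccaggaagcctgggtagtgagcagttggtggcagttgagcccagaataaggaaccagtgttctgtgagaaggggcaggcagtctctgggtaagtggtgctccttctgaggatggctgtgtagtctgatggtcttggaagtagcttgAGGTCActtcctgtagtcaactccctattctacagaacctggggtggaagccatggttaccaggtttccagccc
Lpin2, first of 3 starts, chr17:71183282-71183531, plus strand: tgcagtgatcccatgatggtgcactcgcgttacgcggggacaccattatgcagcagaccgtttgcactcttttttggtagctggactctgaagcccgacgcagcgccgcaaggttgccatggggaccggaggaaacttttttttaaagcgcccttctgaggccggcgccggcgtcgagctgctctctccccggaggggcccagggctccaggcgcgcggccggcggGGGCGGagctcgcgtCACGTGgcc
Lpin3, first of 2 starts, chr2:160880420-160880669, plus strand: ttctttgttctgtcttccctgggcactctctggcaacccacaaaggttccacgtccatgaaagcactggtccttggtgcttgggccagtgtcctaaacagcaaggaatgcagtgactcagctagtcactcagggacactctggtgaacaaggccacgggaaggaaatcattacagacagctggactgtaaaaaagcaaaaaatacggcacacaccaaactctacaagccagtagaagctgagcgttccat
The Lpin1 window held 1 match to the nuclear receptor motif, present in 14.0% of the 32851 windows of that length, and none of the other 6. The printed Lpin2 window held 1 E-box, present in 6.02% of windows, and 1 GC box, present in 32.7%, and the printed Lpin3 window matched none. Of the windows not printed, the second Lpin2 start and the second Lpin3 start each had 1 GC box. The third Lpin2 start had 3 CCAAT boxes, a motif present in 33.8% of windows. The Lpin1 window lies 21196 bases before the start of the gene model used for counting, while the Lpin3 window ends at the start of its model. A match describes the letters only.

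Lpin1 (ENSMUSG00000020593.8, GRCm38 chromosome 12, 16535669 to 16589770, minus strand) encodes lipin 1, the lipin that hormones of fasting and glucocorticoids are known to induce in liver. It held 2.27, 3.68, 4.66, 3.02 and 2.97 FPKM in NDWT replicates 1 to 5 and 10.1, 8.09, 13.5, 6.94 and 4.54 in NDKO. It held 6.90, 6.06, 7.41, 5.67 and 5.74 FPKM in HFWT and 11.9, 10.8, 12.3, 12.2 and 12.9 in HFKO. On control diet 4 of 5 livers labelled TSP-1 null exceeded every WT liver, and NDKO replicate 5 lay just below NDWT replicate 3. On CDAHFD the 5 TSP-1 null livers all exceeded the 5 WT livers, and all 5 HFWT livers exceeded all 5 NDWT livers.

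Lpin1 was thus 2.46-fold higher in TSP-1 null than in WT livers on control diet (log2FC 1.30, SE 0.21, FDR 7.19e-04) and 1.88-fold higher on CDAHFD (0.91, SE 0.21, FDR 0.0401). It was the only one of the 10 genes called in either genotype comparison, 1 higher and 0 lower on each diet, where 1.74% of all genes were called higher and 3.03% lower on control diet, and 0.165% and 0.330% on CDAHFD. The control diet groups overlapped for all 10 genes, against 9.03% of all genes without overlap, and on CDAHFD Lpin1 alone of the 10 did not overlap, against 4.98%. The CDAHFD call was narrow: it was lost, at an FDR of 0.0501 to 0.0916, when any of the 10 CDAHFD livers, NDKO replicate 2 or NDWT replicate 5 was left out, with a log2FC of 0.88 to 0.97 over all livers left out in turn. The control diet call held with every liver left out. The interaction of diet and genotype for Lpin1 was -0.39 (95% interval -1.01 to 0.24, FDR 0.589).

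The diet raised Lpin1 by 0.95 in WT (SE 0.21, FDR 5.07e-04), 0.42 above the median of all genes, and the call was lost under median of ratios scaling (log2FC 0.40, FDR 0.103) and quantile normalization (0.29, FDR 0.196). In TSP-1 null livers the diet difference was 0.56 (FDR 0.0235), short of the fold change threshold. It became a call when HFKO replicate 2 (0.60), NDKO replicate 1 (0.64) or NDKO replicate 3 (0.74) was left out, and the value ranged from 0.35 to 0.74 over all livers left out in turn. Median of ratios scaling took it to 0.03 (FDR 0.913) and quantile normalization to 0.10 (FDR 0.664).

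Lpin2 (ENSMUSG00000024052.11, chromosome 17, 71182560 to 71249817, plus strand), the main hepatic lipin by FPKM, held 44.4, 25.9, 38.2, 48.3 and 30.2 FPKM in NDWT and 36.2, 40.5, 50.6, 43.3 and 31.6 in NDKO. In HFWT it held 27.1, 26.6, 26.8, 26.4 and 27.2 FPKM, and in HFKO 25.7, 39.4, 29.2, 38.5 and 42.0. The HFWT values lay inside the NDWT range, and 1 HFKO liver lay below all of HFWT while 4 lay above. Lpin2 was not called in any comparison, with -0.44 (FDR 0.0203) for the diet in WT and 0.35 (95% interval 0.02 to 0.69, FDR 0.271) between genotypes on CDAHFD. Median of ratios scaling made the diet difference a call in WT (-1.0, FDR 3.22e-05) and in TSP-1 null (-0.75, FDR 6.68e-04), and quantile normalization made it one in WT (-0.67, FDR 0.00133).

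Lpin3 (ENSMUSG00000027412.6, chromosome 2, 160880670 to 160906002, plus strand), the least abundant lipin on control diet and the one best known from the gut, held 0.779, 0.908, 1.45, 1.25 and 0.896 FPKM in NDWT and 0.866, 0.977, 1.22, 1.46 and 1.41 in NDKO. It held 5.36, 2.84, 3.21, 2.81 and 2.69 FPKM in HFWT and 2.40, 2.58, 2.84, 3.23 and 3.32 in HFKO. Every CDAHFD liver exceeded every control diet liver, and HFWT replicate 1 stood far above the rest. The diet raised Lpin3 by 1.58 in WT (SE 0.19, FDR 4.92e-07), or 1.40 to 1.69 with each liver left out in turn, and by 1.23 in TSP-1 null (SE 0.19, FDR 1.22e-05). Quantile normalization took the TSP-1 null difference to 0.43, under the threshold. The genotypes differed by 0.16 (95% interval -0.24 to 0.56) on control diet and -0.19 (-0.59 to 0.21) on CDAHFD. Lpin3 lies on the chromosome of Thbs1, 42.8 Mb away, and Agpat2 lies 91.5 Mb away on the other side.

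Set against each other within a library, the lipins changed their proportions. Lpin1 made up 8.37% ± 3.09 of summed lipin FPKM in NDWT, 16.8% ± 4.19 in NDKO and, on CDAHFD, 17.3% ± 1.48 in HFWT and 24.5% ± 3.94 in HFKO (SD, n = 5). Lpin2 held 89.1%, 80.8%, 73.5% and 69.7%, and Lpin3 2.58%, 2.45%, 9.16% and 5.80%. The Lpin1 to Lpin2 ratio was 0.0512 to 0.142 in NDWT, 0.144 to 0.279 in NDKO and, on CDAHFD, 0.211 to 0.276 in HFWT and 0.274 to 0.463 in HFKO. NDKO and HFWT each lay wholly above NDWT, and 4 of 5 HFKO values lay above all of HFWT. The ratio was 2.25 times higher in TSP-1 null livers on control diet (log2 difference 1.17, two-sided exact permutation p = 0.00794, adjusted 0.0254) and 1.47 times higher on CDAHFD (0.56, exact p = 0.0159, adjusted 0.0282). With the diet it was 2.62 times higher in WT (1.39, exact p = 0.00794, adjusted 0.0254) and 1.71 times higher in TSP-1 null (0.78, exact p = 0.0159, adjusted 0.0282). With 5 livers against 5 the smallest possible p is 0.00794, and p-values were adjusted over 16 ratio comparisons. The adjusted p of the diet difference in TSP-1 null livers passed 0.05, at 0.0705, without HFKO replicate 1, 3, 4 or 5.

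**Figure D3:**
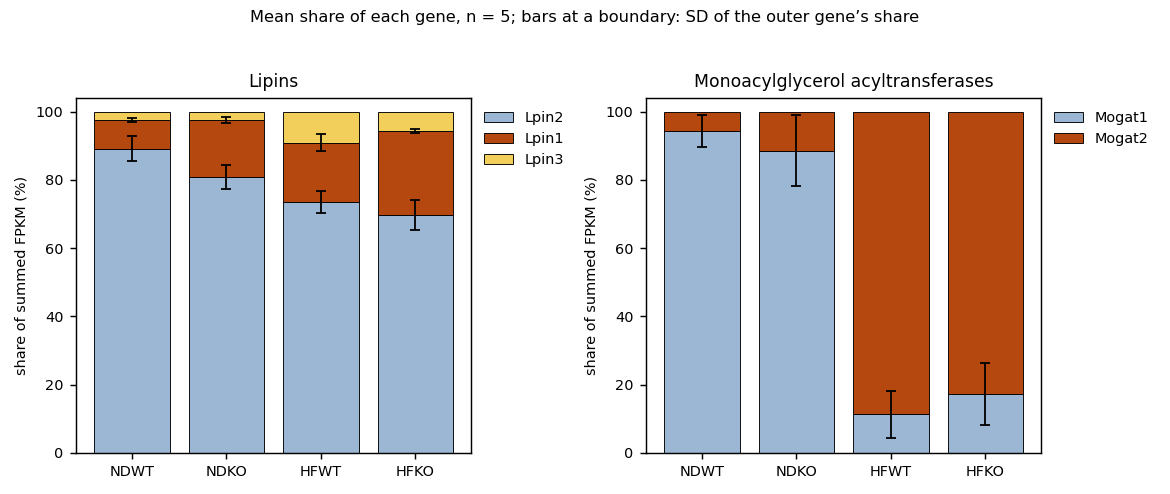
Mean share of summed FPKM (vertical axis, percent) of each lipin (left) and of each MGAT (right) in the 4 groups of 5 livers, where a bar at the lowest boundary is the SD of the lowest gene’s share and a bar at the next boundary the SD of the Lpin3 share. Lpin1 grows from 8.37% in NDWT to 24.5% in HFKO, and Mogat2 from 5.72% in NDWT to 88.8% in HFWT.

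Other genes known to respond to fasting or to the clock moved beside Lpin1 in the genotype comparison on control diet. Of 9 fasting response genes, 2 rose and none fell, where 1.74% of all tested genes rose and 3.03% fell. Igfbp1, a secreted IGF binding protein, rose by 1.98 (FDR 0.00485), and Pck1, an enzyme of gluconeogenesis, by 0.82 (FDR 0.00832). Ppargc1a, a coactivator induced by fasting, held 0.523 to 1.89 FPKM in NDWT and 1.97 to 3.68 in NDKO without overlap (1.29, FDR 0.00219). Among 11 clock genes, Per1 rose by 1.13 (FDR 0.0107) and Per2 fell by 0.77 (FDR 0.0345). The Per2 call was lost under median of ratios scaling and quantile normalization, and the Pck1 call under quantile normalization. On CDAHFD none of the fasting, clock or regulator genes was called between genotypes, except Ppargc1b under both scalings and Pck1 under quantile normalization, although Per1 ranged from 5.21 to 9.47 FPKM in HFWT and from 9.97 to 11.9 in HFKO. With the diet itself 5 of the 9 fasting genes fell in WT and 6 in TSP-1 null (2 and 4 under quantile normalization), and none rose, while Lpin1 rose in WT. Of all tested genes 4.62% fell in WT and 4.00% in TSP-1 null, or 17.6% and 15.1% under quantile normalization. The part of feeding state or time of day in the Lpin1 difference was not tested.

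Of the 10 genes, the widest diet difference in both genotypes was that of an MGAT. Mogat2 (ENSMUSG00000052396.7, chromosome 7, 99219084 to 99238619, minus strand), the MGAT of enterocytes, held 0.094, 0, 0.122, 0.032 and 0.082 FPKM in NDWT, which is 12 fragments over the 5 libraries, and 0.053, 0.024, 0.058, 0.034 and 0.054 in NDKO, which is 8. On CDAHFD it held 3.07, 1.59, 2.69, 1.72 and 1.29 FPKM in HFWT and 1.06, 1.53, 1.15, 0.882 and 1.00 in HFKO. Control diet livers had 0 to 4 fragments each, at or near the floor of 3, and CDAHFD livers had 32 to 101.

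Mogat2 was higher with the diet by 3.70 in WT (SE 0.25) and 3.07 in TSP-1 null (SE 0.25). The log2(FPKM + 0.1) scale understates a change from so low a level. Mogat2 entered the test only through the CDAHFD libraries, where it is higher, so this difference is described by its values. Pooled fragments scaled to library size gave a ratio of 30.2 in WT (95% interval 17.1 to 59.0) and 24.9 in TSP-1 null (12.4 to 58.6), and these intervals cover counting error only. Between genotypes on CDAHFD the difference was -0.78 (SE 0.25, unadjusted p = 0.00564 and FDR 0.124 by limma), which was not called, and the 5 HFKO values overlapped those of HFWT. Dgat2 is its neighbour on chromosome 7, 36.4 kb away with 0 genes between, and was not called with the diet in either genotype.

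Mogat1 (ENSMUSG00000012187.7, chromosome 1, 78510991 to 78538173, plus strand), an MGAT that PPARγ is known to drive in fatty liver, held 0.662, 0.462, 1.48, 1.05 and 1.38 FPKM in NDWT and 0.653, 0.537, 0.893, 0.080 and 0.508 in NDKO. It held 0.143, 0.307, 0.412, 0.064 and 0.297 FPKM in HFWT and 0.058, 0.451, 0.393, 0.097 and 0.303 in HFKO. All HFWT livers lay below all NDWT livers, whereas NDKO replicate 4 lay among the CDAHFD values. Mogat1 was lower with the diet by 1.69 in WT (SE 0.46), with 148 fragments in NDWT against 36 in HFWT. Because Mogat1 entered the test only through control diet libraries, where it is higher, its diet differences are described by their values. In TSP-1 null livers the difference was -0.79 (95% interval -1.76 to 0.18), and it was -1.19 without NDKO replicate 4. Median of ratios scaling gave -1.17 and quantile normalization -1.95 in these livers. Within libraries the Mogat1 to Dgat2 ratio was lower with the diet by 1.73 on the log2 scale in WT (exact p = 0.00794, adjusted 0.0254), and in TSP-1 null livers it differed by -1.12 (exact p = 0.0873, adjusted 0.140). The diet and genotype interaction was 0.90 (95% interval -0.47 to 2.27, FDR 0.564).

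Mogat2 thus made up 5.72% ± 4.72 of summed MGAT FPKM in NDWT, 11.5% ± 10.4 in NDKO and, on CDAHFD, 88.8% ± 6.87 in HFWT and 82.7% ± 9.12 in HFKO. Next to the DGATs both were minor: Mogat2 reached 0.962% of summed MGAT and DGAT FPKM in HFWT and 0.510% in HFKO, while Dgat2 held 93.8% to 95.6% in the 4 groups.

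Markers of bile duct and stellate cells moved with the diet in the same direction as Mogat2 and Lpin3. The summed FPKM of Krt19, Krt7, Epcam, Sox9 and Spp1, markers of bile duct cells, was 12.4 to 18.002 in the control diet livers, 292 to 488 in HFWT and 181 to 360 in HFKO. All 5 markers rose in both genotypes, where 44.1% of all tested genes rose in WT and 41.9% in TSP-1 null. The liver with the lowest sum in HFWT, replicate 3, had the second highest Mogat2 value, and HFWT replicate 1, the highest in Mogat2 and Lpin3, had a sum of 485. HFWT replicate 2 had the highest sum, 488, and 1.59 FPKM of Mogat2. In HFKO, replicate 2 had the lowest sum, 181, and the highest Mogat2 value, 1.53 FPKM. HFKO replicate 3 had the highest sum of its group, 360, and 1.15 FPKM of Mogat2. All 6 stellate cell and fibroblast markers rose as well, with sums of 44.5 to 62.9 on control diet and 203 to 376 on CDAHFD, and 5 macrophage markers summed to 126 to 213 and 205 to 433, which overlap. Of these Trem2, of lipid-associated macrophages, rose by 6.15 in WT and 4.87 in TSP-1 null and Cd68 by 2.98 and 2.83, while Clec4f, of resident Kupffer cells, fell by 1.22 and 0.77. Of 5 enterocyte markers, Sis and Alpi stood at 0 in every library, and the sum, nearly all of it Fabp2, was 73.8 to 138 on control diet and 58.7 to 84.6 on CDAHFD. Vil1, also an epithelial gene of bile ducts, rose by 3.14 in WT and 2.91 in TSP-1 null, from at most 0.097 FPKM on control diet to 0.468 to 1.55 on CDAHFD. The part of these cells in the Mogat2 and Lpin3 differences was not tested.

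Dgat2 (ENSMUSG00000030747.4, chromosome 7, 99153663 to 99182713, minus strand) held 215, 200, 200, 177 and 185 FPKM in NDWT and 163, 185, 153, 142 and 198 in NDKO. On CDAHFD it held 205, 181, 224, 207 and 190 FPKM in HFWT and 215, 226, 204, 222 and 188 in HFKO. The lowest 3 values were all NDKO livers, and the 4 ranges overlapped. It was not called in any comparison. The diet difference was 0.04 in WT (95% interval -0.14 to 0.22) and 0.33 in TSP-1 null (0.15 to 0.52, FDR 0.00200), below the fold change threshold. Median of ratios scaling turned these to -0.52 and -0.20, whereas quantile normalization gave 0.15 and 0.42 (FDR 1.35e-04 in TSP-1 null), without a call. Relative to the median of all genes, Dgat2 lay 0.49 lower with the diet in WT and 0.17 lower in TSP-1 null.

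Dgat1 (ENSMUSG00000022555.5, chromosome 15, 76502015 to 76511951, minus strand) held 9.07, 8.77, 8.46, 9.62 and 8.19 FPKM in NDWT and 11.7, 11.0, 10.1, 9.997 and 9.10 in NDKO. In HFWT it held 8.98, 9.35, 8.75, 9.80 and 10.3 FPKM, and in HFKO 7.70, 7.12, 9.19, 8.45 and 9.09. On control diet 4 of 5 TSP-1 null values exceeded every WT value. The diet difference was 0.10 in WT (-0.46 under median of ratios scaling) and -0.32 in TSP-1 null (FDR 0.00151), short of the fold change threshold. The TSP-1 null difference became a call under median of ratios scaling (-0.85) and quantile normalization (-0.79).

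The Dgat2 to Dgat1 ratio was 18.4 to 23.7 in NDWT, 13.9 to 21.7 in NDKO and, on CDAHFD, 18.5 to 25.6 in HFWT and 20.7 to 31.8 in HFKO. On control diet 4 of 5 TSP-1 null livers lay below every WT liver, and the ratio was 0.730 times that in WT (log2 difference -0.45, exact p = 0.0159, adjusted 0.0282). With the diet it was 1.57 times higher in TSP-1 null livers (0.65, exact p = 0.0159, adjusted 0.0282) and 0.963 times in WT (-0.05, exact p = 0.675, adjusted 0.720). The control diet difference passed an adjusted p of 0.05, at 0.0564 to 0.0705, when any of 8 livers was left out (all but NDWT replicate 4 and NDKO replicate 5), and the diet difference in TSP-1 null did so, at 0.0635, without NDKO replicate 1. On CDAHFD the genotypes differed by 0.25 (exact p = 0.119, adjusted 0.173).

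None of the 10 genes was called for the interaction of diet and genotype by limma, against 0.647% of all genes, and 3 of the 10 had an unadjusted p below 0.05, as did 15.1% of all genes. These were Dgat1 (-0.42, FDR 0.0826), Gpam (0.48, FDR 0.120) and Dgat2 (0.29, FDR 0.261). In the genotype comparisons 4 of the 10 genes on control diet and 5 on CDAHFD had an unadjusted p below 0.05, as did 27.3% and 17.2% of all genes.

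**Figure D4:**
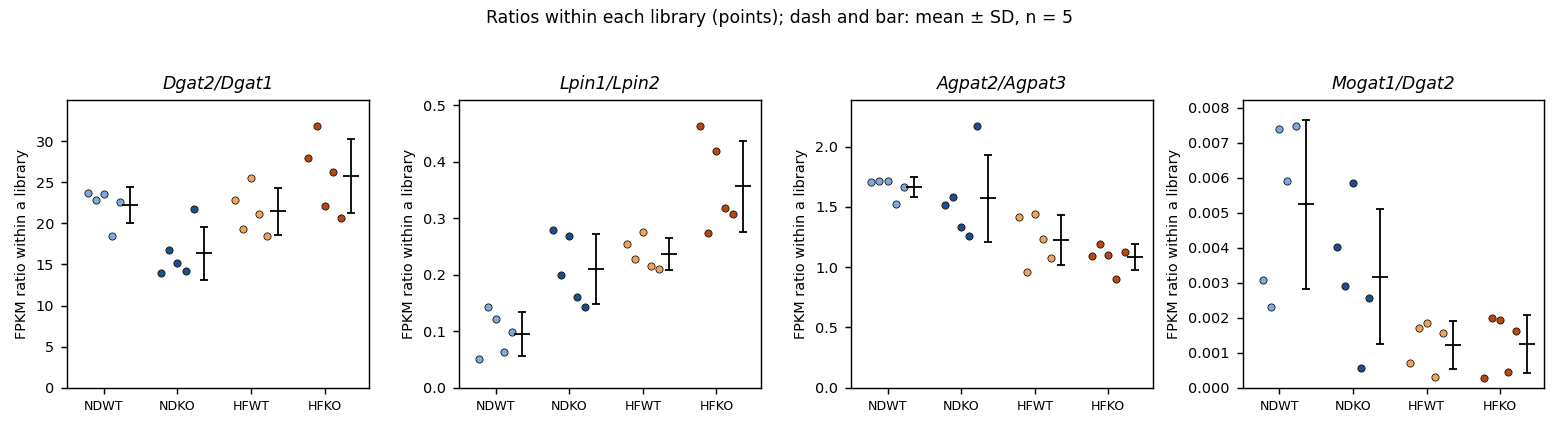
Ratio of FPKM between 2 genes within each library (vertical axis, linear from 0; points are the 20 livers, replicate 1 to 5 from left to right in each group), with mean ± SD, n = 5. The Lpin1 to Lpin2 ratio climbs from 0.0953 in NDWT to 0.356 in HFKO on average, and the Agpat2 to Agpat3 ratio lies between 0.901 and 1.44 in the CDAHFD livers against 1.26 to 2.17 on control diet.

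Gpam (ENSMUSG00000024978.10, chromosome 19, 55069734 to 55099451, minus strand), the mitochondrial GPAT that commits acyl-CoA to glycerolipids, held 42.8, 36.2, 50.7, 50.5 and 47.4 FPKM in NDWT and 35.022, 44.3, 39.1, 32.6 and 37.0 in NDKO. It held 38.1, 38.1, 37.0, 28.8 and 37.7 FPKM in HFWT and 37.1, 40.2, 41.3, 41.4 and 47.7 in HFKO. In HFWT 4 of the 5 values lay within the NDWT range. With the diet the difference was -0.34 in WT (FDR 0.00700), short of the fold change threshold and called at -0.90 under median of ratios scaling, and 0.15 in TSP-1 null (95% interval -0.07 to 0.37), which that scaling turned to -0.39. Between genotypes it was -0.27 on control diet (FDR 0.0942) and 0.21 on CDAHFD (FDR 0.304).

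Agpat2 (ENSMUSG00000026922.7, chromosome 2, 26593057 to 26604417, minus strand), the AGPAT whose loss causes lipodystrophy, held 115, 99.1, 95.3, 87.2 and 89.8 FPKM in NDWT and 88.0, 101, 81.3, 69.3 and 108 in NDKO. In HFWT it held 75.1, 54.1, 72.2, 61.3 and 55.1 FPKM, and in HFKO 62.2, 63.1, 68.2, 55.0 and 68.9. All CDAHFD livers lay below the control diet livers of their own genotype. Agpat2 fell by 0.62 in WT (SE 0.12, FDR 1.04e-04), and in TSP-1 null the difference was -0.48 (SE 0.12, FDR 0.00118), short of the fold change threshold and called at -1.02 under median of ratios scaling. The WT call was lost, at -0.57 to -0.56, without HFWT replicate 2, HFWT replicate 5 or NDWT replicate 1. Egfl7 overlaps Agpat2 on the other strand, at 4.19 to 10.6 FPKM, and whether the counting used strand is not given in the sources used here. Genes that overlap Agpat3, Lpin2, Lpin3 and Mogat1 stood at 1.81 FPKM or less.

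Agpat3 (ENSMUSG00000001211.8, chromosome 10, 78269178 to 78352489, minus strand), an AGPAT that also serves phospholipid synthesis, ranged from 53.9 to 67.6 FPKM in NDWT (median 57.2), 49.9 to 63.9 in NDKO (58.1), 49.7 to 56.5 in HFWT (51.1) and 52.8 to 61.9 in HFKO (61.0). It was not called in any comparison, and its diet difference was -0.16 in WT (95% interval -0.32 to -0.01, FDR 0.0543) and 0.03 in TSP-1 null (-0.12 to 0.19). Median of ratios scaling took these to -0.72, a call, and -0.50. The Agpat2 to Agpat3 ratio was lower with the diet by 0.46 on the log2 scale in WT and by 0.52 in TSP-1 null (both exact p = 0.00794, adjusted 0.0254), without overlap. Between genotypes it differed by -0.11 on control diet (exact p = 0.452) and -0.17 on CDAHFD (exact p = 0.230).

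Other enzymes of the same route were called in both directions under CDAHFD. Of 12 genes for glycerol 3-phosphate supply, GPATs, AGPATs and phosphatidate phosphatases, 7 rose and 3 fell in WT, where 44.1% of all genes rose and 4.62% fell. In TSP-1 null 4 rose and 2 fell, against 41.9% and 4.00%. The medians were 0.63 and 0.54 beside 0.53 and 0.50 for all genes. With median of ratios scaling 2 were higher and 4 lower in WT, against 22.7% and 15.4% of all genes. In the null mice 2 were higher and 3 lower, against 22.2% and 13.6%. Quantile normalization gave 2 higher and 3 lower for WT, against 17.3% and 17.6%, and 2 of each for the null mice, against 16.7% and 15.1%. Gpat4, listed as Agpat6, an endoplasmic reticulum GPAT, fell by 1.42 in WT and 1.70 in TSP-1 null. Gk, listed as Gyk, the kinase that makes glycerol 3-phosphate, fell by 0.94 and 0.72. Agpat4 rose by 2.45 and 2.19, Agpat1 by 1.08 and 1.02, and Plpp2, listed as Ppap2c, a phosphatase outside the lipin family, by 1.65 and 1.75. Gpat3, listed as Agpat9, rose by 0.75 and 0.90. The calls of Agpat1 and Gpat3 were lost in both genotypes under both scalings.

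Between genotypes 1 of the 12 was called on each diet, as lower, beside 3.03% of all genes on control diet and 0.330% on CDAHFD. Gpat2, a GPAT best known from testis, held 1.47, 1.35, 1.35, 0.621 and 1.24 FPKM in NDWT and 0.424, 0.737, 0.346, 0.548 and 0.791 in NDKO, with 2.89, 2.10, 1.65, 1.45 and 1.72 for HFWT against 0.913, 0.924, 0.719, 0.597 and 0.978 for HFKO. It was lower in TSP-1 null livers on both diets (-0.96, FDR 0.0107, and -1.13, FDR 0.0231), and on CDAHFD the groups did not overlap. Gpat2 lies on chromosome 2, 9.3 Mb from Thbs1. Gpd1, which makes glycerol 3-phosphate from a glycolytic intermediate, was the 1 gene of the 12 called for the interaction (0.79, FDR 0.0183), beside 0.647% of all genes. It held 270 to 336 FPKM in NDWT and 119 to 155 in HFWT, against 182 to 260 in NDKO and 145 to 174 in HFKO.

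Of 9 genes of triglyceride breakdown tested, 4 fell and 0 rose in WT, where 4.62% of all genes fell and 44.1% rose. In TSP-1 null 3 fell and 1 rose, against 4.00% and 41.9%. The medians were -0.20 and -0.15, below the 0.53 and 0.50 of all genes. Under median of ratios scaling 6 fell in WT and 5 in TSP-1 null, against 15.4% and 13.6% of all genes. Quantile normalization gave 5 and 4, against 17.6% and 15.1%, and none rose under either scaling. Hilpda, an inhibitor of the lipase ATGL, was the gene that rose in TSP-1 null (0.60, FDR 0.0317), a call lost under both scalings. G0s2, another inhibitor of this lipase, fell by 2.70 in WT and 2.16 in TSP-1 null. Mgll, the monoacylglycerol lipase, fell by 1.69 and 0.90, and Ces1d, a carboxylesterase that hydrolyses triglyceride, by 1.86 and 1.47. No gene of this list was called between genotypes on either diet, although median of ratios scaling called Pnpla2 higher on control diet.

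Of 10 regulators of the pathway, 3 rose and 2 fell in WT with the diet, where 44.1% of all genes rose and 4.62% fell. In TSP-1 null 3 rose and 1 fell, against 41.9% and 4.00%. The medians were 0.29 and 0.24, below the 0.53 and 0.50 of all genes. Under either scaling the WT counts were 2 higher and 3 lower, and those of the null mice 2 and 4. Of all genes, median of ratios scaling called 22.7% higher and 15.4% lower in WT, and 22.2% and 13.6% in the null mice. Quantile normalization called 17.3% and 17.6% in WT, and 16.7% and 15.1% in the null mice. Pparg, the receptor that drives lipid storage, rose by 1.52 and 2.20, and Srebf1, the SREBP gene that drives fatty acid synthesis, by 1.498 and 1.24. Ppara, the receptor that drives fatty acid oxidation and partner of lipin 1, fell by 1.22 and 0.65. Between genotypes on control diet Pparg, at 2.99 to 4.39 FPKM in NDWT and 1.34 to 3.13 in NDKO, fell by 0.75 (FDR 0.0114) with overlapping ranges. Mogat1 differed by -0.89 (FDR 0.223) in the same comparison. With the diet, where Pparg rose, Mogat1 went the other way, by -1.69 in WT and -0.79 in TSP-1 null. A link between Pparg and Mogat1 was not tested.

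Each gene was also set beside all other tested genes by the root mean square difference of centred log2 values over the 20 libraries. The 3 genes nearest to Lpin1 were Galnt15 (0.40), Srrm4 (0.41) and Igfbp2 (0.43), and those nearest to Mogat2 were Sema3b (0.34), C3ar1 (0.36) and Gpx2 (0.36). Lpin3 was nearest to Spats2 (0.23), Dgat2 to Tmem14c (0.10) and Agpat3 to Poldip2 (0.08). Likeness of values over these libraries is a description and, for genes that differ by diet, is shared with many others.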

How the data were processed

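Liver poly(A) RNA from 20 mice, 5 per group, was sequenced from directional libraries. The authors aligned and counted the reads, with STAR 2.5.2, featureCounts and Subread 1.5.1 named in the submitters' processing notes, and deposited FPKM per gene without further scaling. Those notes name build GRCh38, but the coordinates in the deposited table are mouse: 37607 gene IDs were found in GENCODE M21 (GRCm38), 99.79% of them overlapping on the same strand. Strand setting of the counts is not given in the sources used here.

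FPKM times gene length and library size gave back each gene's fragments, whole within 0.02 for at least 99.99% of checked values. No pair of libraries within a group was a copy: chi-square over degrees of freedom was 13.0 or more in all 40 pairs. Floors (3 fragments) and intervals cover counting error only, since no molecular identifiers were used.

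limma 3.58.1 in R 4.3.3 was fitted to log2(FPKM + 0.1) with trend, 1 mean per group and all 20 libraries, and p-values were two-sided and adjusted by Benjamini-Hochberg over the 14524 genes. The fit was tested on simulated data. Within-library log2 ratios used two-sided exact permutation tests. Python 3.11.15 with pandas 2.3.3, numpy 2.4.6 and, for figures, matplotlib 3.10.9 was used. The genes, the lists, the 4 ratios and the tests were chosen with earlier results of these data known. Each of the 10 genes is named, wider lists by their called members, and nearest genes as the first 3. Gpat2, Gpd1, Per1, Ppargc1a and Pparg values per library, and the promoter windows, were chosen after values were seen. Alternatives were pseudocounts 0.01 and 1, other filters, scalings and thresholds, only the groups compared, the replicate number as a block, and leaving out each mouse.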

Additional observations from a re-analysis of the deposited data

Results flagged for a closer look

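Within groups of 5, a value was flagged when its gap to the nearest other value exceeded 0.71 of the group's range (Dixon's 95% limit), which chance gives in about 1 of 20 groups. Of 56 groups, 5 were flagged. Gpam in HFWT replicate 4, at 28.8 FPKM, lay below the other 4. Agpat3 in NDWT replicate 1, at 67.6 FPKM, lay above the rest of its group. Lpin3 in HFWT replicate 1, at 5.36 FPKM, stood above the other HFWT livers, and without that liver Lpin3 still rose with CDAHFD in WT. NDWT replicate 4 was flagged in 2 ratios, with a Dgat2 to Dgat1 ratio of 18.4 and an Agpat2 to Agpat3 ratio of 1.53, both the lowest of NDWT. The cause of these values was not tested.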

How the results depend on the processing

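Over the single gene results, no call changed direction under any alternative. The number of genes called for CDAHFD in TSP-1 null livers was 2 and became 6 under median of ratios scaling (2 higher, 4 lower, against 22.2% and 13.6% of all genes) and 6 with no fold change threshold (4 higher, 2 lower, against 64.0% and 7.69%). The 1 call between genotypes on CDAHFD, Lpin1, became 0 with no filter on low values (FDR 0.0523), where more genes were tested, and ranged from 0 to 1 with each liver left out. The replicate numbers shared by the groups did not pair the mice: over 30 same-numbered pairs the correlation of deviations was -0.133 to 0.081, and 8 correlated best with their own number. With the replicate number as a block the counts of called genes stayed at 5, 2, 1, 1 and 0. An exact sign-flip test over 5 blocked pairs is too small to pass the threshold, so under the block no ratio passed: Dgat2 to Dgat1 was 0.65 for the diet in TSP-1 null and -0.45 between genotypes on control diet, Lpin1 to Lpin2 1.39, 0.78, 1.17 and 0.56 in the 4 comparisons, Agpat2 to Agpat3 -0.46 and -0.52 for the diet, and Mogat1 to Dgat2 -1.73 for the diet in WT. With each liver left out, Dgat2 to Dgat1 ranged from 0.57 to 0.76 for the diet in TSP-1 null and from -0.56 to -0.40 between genotypes on control diet, and Lpin1 to Lpin2 from 0.66 to 0.89 for the diet in TSP-1 null. Agpat2 to Agpat3 between genotypes on control diet ranged from -0.23, without NDKO replicate 5 and then passing 0.05 (adjusted exact permutation p = 0.0381), to -0.036. Mogat1 to Dgat2 for the diet in TSP-1 null, -1.12 (adjusted exact p = 0.140), passed with a pseudocount of 1 (-0.60) and without NDKO replicate 4 (-1.47), and ranged from -1.47 to -0.86. Mogat1 and, on control diet, Mogat2 rested on few fragments, so their fold changes depend on the pseudocount.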
